A study of Mus musculus with 12 samples.

Results

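The 9 genes described here, Ace, Treml4, Cd300e, Adgre4, Spn, Nr4a1, Pou2f2, Eno3 and Nxpe4, were listed as genes of nonclassical monocytes, with their raw UMIs in spleen and trachea phagocytes already in view. They are 9 of the 31053 genes in the count tables, and each was found under its symbol. Their levels, their positive cells and their detection in the same cell, in spleen against trachea phagocytes, all belong to that choice and are given below as a description. The series title asks how mononuclear phagocytes take part in the fibrosis of airways after transplantation. Single cells of 3 mouse sources were profiled, namely spleen, tracheal allograft and native trachea, with 4 samples per source in the labels. The spleen cells are labelled as splenocytes and the cells of both tracheal sources as mesenchymal progenitors. No strain, sex, age, treatment or time after transplantation is given for any of the 3, so what the groups share beyond the species is unknown, as are the donor and recipient of the graft.

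Blood monocytes of the mouse fall into a classical kind, rich in Ly6C and CCR2 and able to enter inflamed tissue, and a nonclassical kind with little Ly6C that patrols the wall of small vessels. Nonclassical monocytes arise from classical ones, and the orphan nuclear receptor Nr4a1 is needed for their formation and survival in mice. The spleen holds a reservoir of monocytes, whereas most phagocytes of a healthy airway are resident macrophages and dendritic cells.

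Promoter windows of 300 bases, from 250 bases before to 50 bases after the start of a gene, were taken from RefSeq on build GRCm38.p6. All 9 genes had an entry, with 10 windows in all because Ace has 2. The windows shown are that of Nr4a1, a transcription factor needed for nonclassical monocytes, that of Ace, which had the largest ratio between spleen and allograft phagocytes, and that of Adgre4, the only 1 of the 10 windows with a PU.1 core motif. The Nr4a1 window lies on the plus strand of chromosome 15 (chr15:101266596-101266895), the first Ace window on the plus strand of chromosome 11 (chr11:105967698-105967997) and the Adgre4 window on the plus strand of chromosome 17 (chr17:55749734-55750033). Capitals mark a motif match.
Nr4a1: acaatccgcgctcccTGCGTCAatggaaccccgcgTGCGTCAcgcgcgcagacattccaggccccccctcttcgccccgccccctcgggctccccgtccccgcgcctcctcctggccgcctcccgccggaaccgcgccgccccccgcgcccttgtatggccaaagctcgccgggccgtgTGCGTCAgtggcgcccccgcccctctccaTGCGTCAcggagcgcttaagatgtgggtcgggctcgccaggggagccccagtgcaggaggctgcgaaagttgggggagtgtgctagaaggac
Ace: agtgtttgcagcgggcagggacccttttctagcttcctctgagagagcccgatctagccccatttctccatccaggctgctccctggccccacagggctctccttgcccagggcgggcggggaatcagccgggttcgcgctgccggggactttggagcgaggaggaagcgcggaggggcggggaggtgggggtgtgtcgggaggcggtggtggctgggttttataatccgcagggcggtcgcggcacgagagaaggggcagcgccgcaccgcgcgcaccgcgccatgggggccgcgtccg
Adgre4: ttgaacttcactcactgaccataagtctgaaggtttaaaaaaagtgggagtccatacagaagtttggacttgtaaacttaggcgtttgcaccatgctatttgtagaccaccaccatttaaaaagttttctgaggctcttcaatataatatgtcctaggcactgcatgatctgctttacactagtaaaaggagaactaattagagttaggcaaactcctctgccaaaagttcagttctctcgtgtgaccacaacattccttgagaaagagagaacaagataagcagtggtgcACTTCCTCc
The capitals in the Nr4a1 window mark TGCGTCA, a sequence like the cyclic AMP response element, which was searched on both strands after the window had been read. It occurred 4 times in this window, in no other window of the 9 genes, and at least once in 2.12% of 32851 promoter windows of the same length. The capitals in the Adgre4 window mark the PU.1 core GAGGAAGT on the opposite strand, printed as ACTTCCTC, which 3.20% of all windows held. The Nr4a1 binding motif AAAGGTCA (1.51% of all windows) and the octamer ATGCAAAT, the motif of the Pou2f2 product (1.74%), were in none of the 10 windows. No other motif searched occurred in these windows, and the matches do not overlap each other. Guanine and cytosine made up 72.3% of the Nr4a1 window, 69.7% of the Ace window and 40.3% of the Adgre4 window, against a median of 52.7% over all windows. No readout of binding or chromatin was analysed here, so these matches describe the sequence only.

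Each source was deposited as 1 pooled matrix whose barcodes cannot be assigned to the 4 samples. Every comparison is therefore between single libraries, no difference was tested, and the spread between animals is unknown. The spleen, allograft and native libraries held 4570, 3864 and 4117 cells after filtering, with medians of 4428.5, 4965 and 6524 unique molecular identifiers (UMIs) per cell. Cells were clustered without the 9 genes, and the clusters with Csf1r at 400 CPM or more (CPM being a gene's UMIs scaled to all UMIs of the same cells) and more Csf1r than Cd79a were taken as phagocytes. Csf1r encodes the receptor of macrophage growth factor and Cd79a a subunit of the B cell receptor. This rule, set after the clusters were seen, took clusters 1, 2, 7 and 9, with Csf1r at 673, 1107, 487 and 1351 CPM. The nearest clusters outside it were cluster 13 with 301 CPM and cluster 19 with 629 CPM, which was left out for its 1550 CPM of Cd79a.

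Phagocytes numbered 477 in spleen (10.4% of its cells), 2206 in allograft (57.1%) and 1613 in native trachea (39.2%), with medians of 3524, 6631 and 6110 UMIs per cell. In spleen 472 of them formed cluster 9, which held no cell of either trachea library. Clusters 1, 2 and 7 held the trachea phagocytes, clusters 1 and 7 mostly from the allograft and cluster 2 mostly from native trachea. The label of mesenchymal progenitors was not borne out by most trachea cells: the fibroblast-like cluster 4 had 31 allograft and 934 native cells. Barcodes shared between libraries were few (4 of spleen and allograft, 7 of spleen and native trachea, 4 of allograft and native trachea). Doublet calling marked 0.185%, 0.672% and 0.886% of the spleen, allograft and native barcodes. An assumed rate of 0.8% per 1000 barcodes would give 3.88%, 3.69% and 3.70%, so most doublets were likely left in.

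The 5 surface molecules were 25.7-fold or more higher in spleen than in trachea phagocytes. Ace encodes angiotensin-converting enzyme and lies on chromosome 11 (105967945 to 105989964, build mm10, ENSMUSG00000020681). It stood at 684 CPM in spleen phagocytes (95% counting interval 648 to 723), at 7.55 CPM in allograft phagocytes (6.30 to 8.97) and at 15.9 CPM in native phagocytes (13.6 to 18.5). Spleen was thus 90.4-fold higher than allograft (75.6 to 110) and 42.9-fold higher than native trachea (36.6 to 50.9). At least 1 Ace UMI was seen in 80.7% of spleen phagocytes, 2.40% of allograft phagocytes and 3.16% of native phagocytes. In cells thinned to 1500 UMIs the shares were 61.6% in spleen, 1.05% in allograft and 1.34% in native phagocytes, against 0.150% of B cell-like spleen cells in cluster 0. All intervals given here cover counting error only.

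Treml4, a receptor of the TREM family that binds dying cells, had 539 CPM in spleen phagocytes, 10.1 in allograft and 10.5 in native phagocytes. Cd300e, an activating receptor of the CD300 family on monocytes, had 351, 8.73 and 4.15 CPM in the same order. Both were thus far higher in spleen: Treml4 53.0-fold over allograft (45.2 to 62.8) and 51.0-fold over native trachea (42.0 to 63.0), Cd300e 40.1-fold (33.6 to 48.4) and 83.7-fold (62.1 to 118). Adgre4, an adhesion receptor coupled to G proteins and a relative of the macrophage marker F4/80, had 626 CPM in spleen, 18.7 in allograft and 22.8 in native phagocytes. Its ratios were 33.4-fold (29.6 to 38.0) and 27.4-fold (23.9 to 31.7). Spn, which encodes the sialoglycoprotein CD43 used to mark monocytes with little Ly6C, had 717 CPM in spleen, 27.9 in allograft and 19.8 in native phagocytes. Spleen was 25.7-fold higher than allograft for Spn (23.2 to 28.6) and 36.2-fold higher than native trachea (31.3 to 42.2).

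The 2 transcription factors had the smallest ratios of the 9. Nr4a1 stood at 813 CPM in spleen phagocytes, 68.9 in allograft and 118 in native phagocytes, which is 11.8-fold (10.9 to 12.7) and 6.86-fold higher in spleen (6.36 to 7.40). Pou2f2, which encodes the POU factor Oct-2 best known from B cells, stood at 1666 CPM in spleen, 126 in allograft and 256 in native phagocytes. Its ratios were 13.3-fold (12.5 to 14.0) and 6.52-fold (6.19 to 6.86). After thinning, Nr4a1 was seen in 67.9% of spleen, 11.0% of allograft and 14.6% of native phagocytes, against 1.40% of B cell-like spleen cells. Pou2f2 was seen after thinning in 401 of 445 spleen, 339 of 2092 allograft and 410 of 1562 native phagocytes. Without thinning, at least 1 UMI of Pou2f2 was seen in 96.6% of spleen phagocytes, 39.3% of allograft and 51.0% of native phagocytes.

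Eno3, the enolase isoform known from muscle, had 350 CPM in spleen phagocytes, 6.78 in allograft and 10.4 in native phagocytes, 51.5-fold (42.3 to 63.5) and 33.5-fold higher in spleen (27.4 to 41.6). Nxpe4 had 213, 4.36 and 1.74 CPM in the same order, 48.7-fold (38.1 to 63.6) and 120-fold higher (76.8 to 210), the last resting on 18 UMIs in native phagocytes. All 9 genes thus passed the 2-fold threshold in spleen against both trachea sources. Of all genes with enough UMIs, 22.5% were 2-fold or more higher against allograft and 25.1% against native trachea, but the genes were chosen on this contrast and nothing is read from their count. Scaling by the median of gene ratios in place of totals lowered every log2 ratio by 0.27 against allograft and by 0.36 against native trachea. On build mm10 Treml4 (ENSMUSG00000051682) lies on chromosome 17 from 48264295 to 48275360, Cd300e (ENSMUSG00000048498) on chromosome 11 from 115051917 to 115062177 and Adgre4 (ENSMUSG00000032915) on chromosome 17 from 55749984 to 55853662. Spn (ENSMUSG00000051457) lies on chromosome 7 from 127132232 to 127137823, Nr4a1 (ENSMUSG00000023034) on chromosome 15 from 101254269 to 101274795 and Pou2f2 (ENSMUSG00000008496) on chromosome 7 from 25087344 to 25179726. Eno3 (ENSMUSG00000060600) lies on chromosome 11 from 70657202 to 70662513 and Nxpe4 (ENSMUSG00000044229) on chromosome 9 from 48162023 to 48400025. The RefSeq start of Nr4a1 used for the window above lies inside these bounds. In the annotation, genes on the opposite strand overlap Ace (Gm11651), Adgre4 (CT573084.1 and Gm18417), Pou2f2 (D930028M14Rik) and Nxpe4 (Nxpe2). Only Mir6537, which overlaps Pou2f2, lies on the same strand as the gene it overlaps. The part of these overlaps in the counts was not tested.

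**Figure D1:**
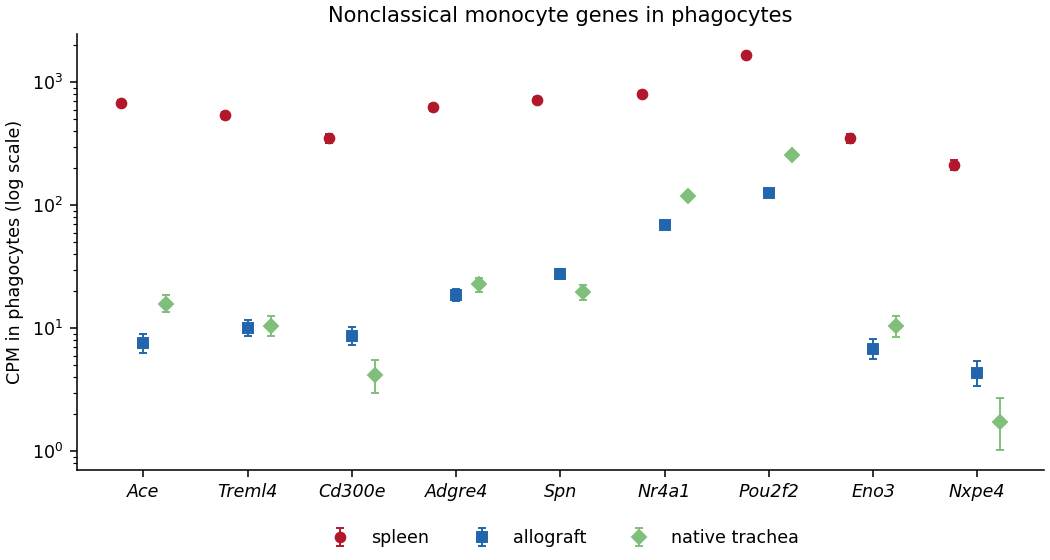
CPM of the 9 genes (log scale) in phagocytes of spleen, allograft and native trachea; points are single pooled libraries and bars 95% Poisson intervals. Spleen lies above both trachea libraries for all 9 genes, from 213 CPM (Nxpe4) to 1666 CPM (Pou2f2).

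Between the trachea sources, a contrast not used to choose the genes, the 9 genes showed no shared direction. Cd300e (2.09-fold, 1.49 to 3.03) and Nxpe4 (2.46-fold, 1.49 to 4.47) were higher in allograft phagocytes, and Ace (2.11-fold, 1.66 to 2.68) and Pou2f2 (2.03-fold, 1.92 to 2.15) lower. Of all 13533 genes compared, 6.83% were 2-fold or more higher and 11.1% lower in allograft phagocytes, against 2 and 2 of the 9. The median log2 ratio was -0.29 over the 9 genes and 0.04 over all genes. Nr4a1 (1.72-fold lower, 1.59 to 1.86) and Spn (1.41-fold higher, 1.19 to 1.67) were less than 2-fold apart. Treml4 was at nearly the same level (1.04-fold lower, 0.808 to 1.33), although 5.26% of allograft and 2.98% of native phagocytes had a UMI of it. These ratios moved with the clustering and the depth: at Leiden resolution 0.3 the log2 ratio of Treml4 was 2.76 and that of Cd300e 3.20, and in thinned cells that of Nxpe4 was 3.49. The Ace difference came from few cells: 128 UMIs came from 53 allograft phagocytes and 165 from 51 native phagocytes, and with each cell thinned to 1500 UMIs its log2 ratio turned to 0.079. In thinned cells 1 of the 9 genes, Nxpe4, was 2-fold or more higher and 0 lower, beside 7.41% and 8.53% of all genes. Nxpe4 was then seen in 20 of 2092 allograft and 1 of 1562 native phagocytes, so its ratio rests on few UMIs. By cluster, 2 of the 9 were higher and 2 lower in allograft cells of cluster 1, beside 13.5% and 8.37% of all genes, and in cluster 2, with 60 allograft cells, 0 of 6 genes compared were higher and 1 lower, beside 13.6% and 10.3%.

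How far each gene was restricted to phagocytes differed within the group. In spleen, where phagocytes were 10.4% of cells, they held 76.9% of the Ace UMIs, 76.0% of Treml4, 71.3% of Adgre4, 68.5% of Cd300e, 66.6% of Eno3, 64.5% of Nr4a1 and 60.8% of Nxpe4. Spn (43.5%) and Pou2f2 (21.4%) were spread more widely. Pou2f2 had 736 CPM in the B cell-like cluster 0 of spleen, with a UMI in 91.4% of its cells, and Spn had 281 CPM in the natural killer-like cluster 11 and 165 CPM in the T cell-like cluster 5. Ace was near absent from cluster 0 of spleen at 0.977 CPM. Small spleen clusters outside the phagocyte set carried the surface genes as well. Cluster 19, 53 cells with B cell genes beside 629 CPM of Csf1r, had Ace at 424 CPM. The neutrophil-like cluster 13 had Ace at 117 CPM, but 91.0% of its UMIs of Ace, Treml4, Cd300e and Adgre4 lay in 17 of its 201 cells. With most doublets likely left in, the part of doublets in both clusters was not tested.

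In the trachea libraries several of the genes stood as high outside the phagocytes as in them. Ace had 190 CPM (150 to 236) in the 31 allograft cells of the fibroblast-like cluster 4, not apart in counting error from its 153 CPM (130 to 180) in native cells of cluster 7. The 934 native cells of cluster 4 had 12.4 CPM (10.3 to 14.7). A UMI of Ace was seen in 64.5% of the 31 allograft cells and 10.2% of the native ones. In cells thinned to 1500 UMIs Ace was seen in 6 of 30 allograft and 26 of 921 native fibroblast-like cells. Treml4 stood at 88.5 CPM in allograft and 91.9 CPM in native cells of cluster 3, an unnamed cluster of few UMIs with neutrophil markers. The allograft value was well above the 6.45 CPM of cluster 1, the largest phagocyte cluster of the allograft. Native cells of phagocyte cluster 7 had Treml4 at 107 CPM under a stricter cell filter described below. Nr4a1 was found in every cluster of 20 or more cells and reached 487 CPM in native fibroblast-like cells and 470 CPM in the chondrocyte-like cluster 17 of the allograft. Native phagocytes held 16.3% of the Nr4a1 UMIs of their library. Of the Cd300e UMIs of the allograft, 148 of 149 (99.3%) were in phagocytes.

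**Figure D2:**
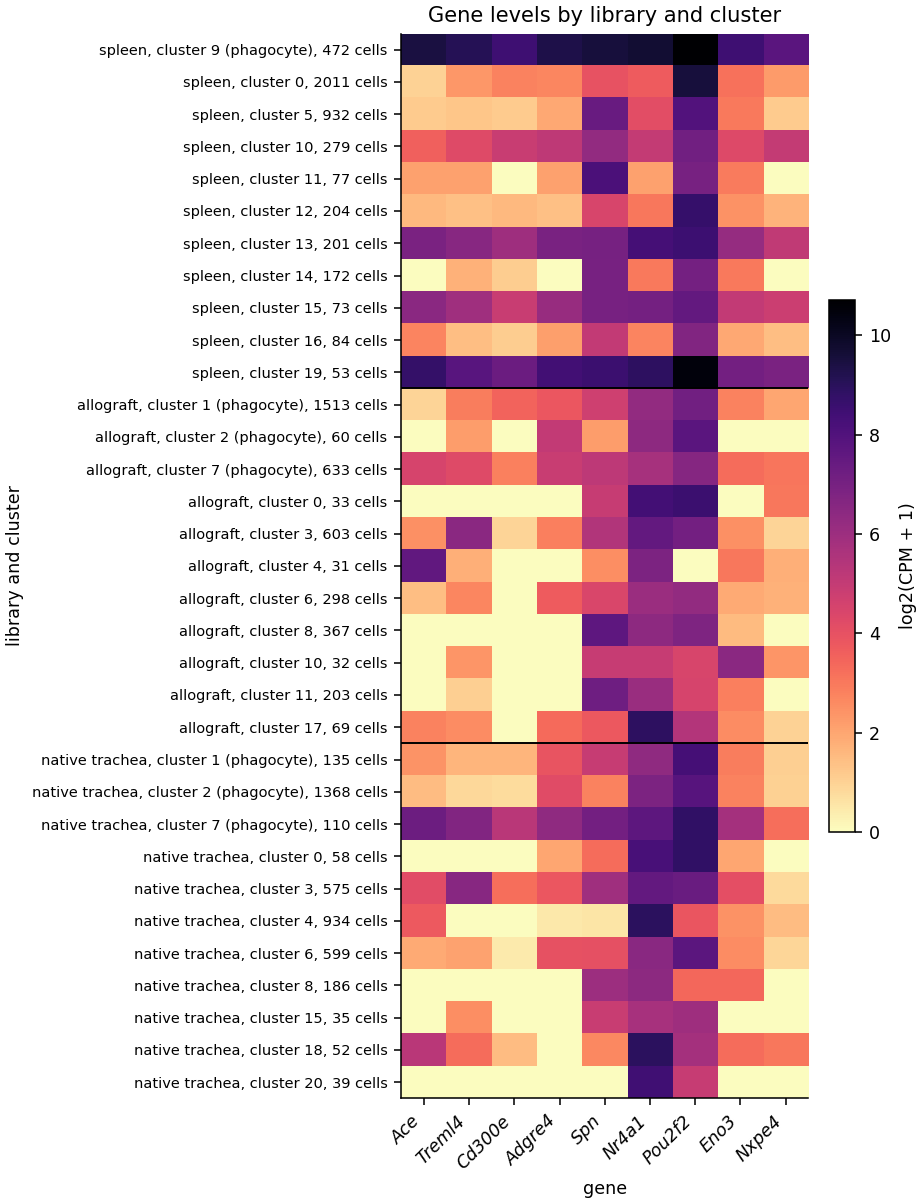
log2(CPM + 1) of the 9 genes (columns) in each cluster of 20 or more cells (rows), by library; darker is higher, and row labels mark the phagocyte clusters. Cluster 9 of spleen is dark for all 9 genes, Pou2f2 also in the B cell-like cluster 0 and Nr4a1 also in fibroblast-like cluster 4 of native trachea.

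Detection in the same cell was counted after each cell had been thinned to 1500 UMIs, which left 445 spleen, 2092 allograft and 1562 native phagocytes. Of the spleen phagocytes 92.6% (89.7 to 94.8, exact binomial) had 2 or more of the 9 genes, with a median of 5 genes per cell. The share was 4.97% (4.08 to 5.99) in allograft and 6.47% (5.30 to 7.80) in native phagocytes. Without thinning these shares were 97.9%, 27.1% and 30.8%. Of cells of another type, 4.51% of the B cell-like cells of spleen cluster 0 (median 4479 UMIs) had 2 or more, and 63.4% of all cells of that cluster had Pou2f2. With Pou2f2 in so many of its cells, cluster 0 is not a clean background for this count. Detection in the same cell was among the values that chose the genes, so the difference between spleen and trachea is a description.

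The 4 surface genes Ace, Treml4, Cd300e and Adgre4 were nearly absent from B cell-like cells. At least 2 of them were seen in 315 of 445 spleen phagocytes (70.8%), 20 of 2092 allograft phagocytes (0.956%) and 13 of 1562 native phagocytes (0.832%), against 6 of 1996 cells of the B cell-like cluster 0 (0.301%). In T cell-like cluster 8 Ace was seen in 0 of 350 allograft and 0 of 181 native cells, which allows up to 0.857% and 1.66% of such cells to show an Ace UMI at 1500 UMIs. It sets no limit on cells that hold the transcript. A second draw of the thinning gave 314, 21 and 21 cells for spleen, allograft and native trachea, and unthinned cells gave 412 of 477, 74 of 2206 and 42 of 1613. Of the thinned cells, 18 of the 20 in allograft and all 13 in native trachea lay in 1 cluster of a finer clustering (Leiden resolution 1.0), finer cluster 10, which held 327 allograft and 81 native cells and had Ly6i and Ly6c2 as leading genes, the second a gene of classical monocytes. In the second draw 20 of 21 allograft and 21 of 21 native cells lay there, and among unthinned cells 44 of 74 and 37 of 42. None of the barcodes of the first draw occurred in the spleen library.

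**Figure D3:**
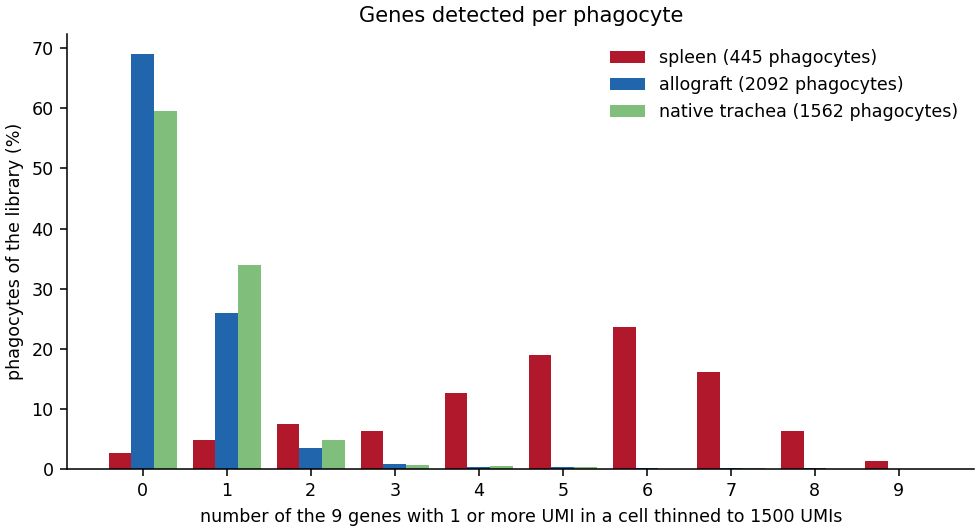
Share of phagocytes (%) by the number of the 9 genes with 1 or more UMI, in cells thinned to 1500 UMIs; bars are the spleen (445 cells), allograft (2092) and native (1562) libraries. Spleen centres on 5 genes per cell, while most trachea phagocytes show 0 or 1.

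Most pairs of genes met more often in the same cell than the product of their 2 shares gives, 35 of 36 pairs in spleen, 35 in allograft and 27 in native trachea. The median ratio of observed to product over the 36 pairs was 1.07 in spleen, 6.29 in allograft and 2.98 in native trachea. Without thinning it was 1.04, 2.25 and 3.67, so the order of the 2 trachea sources depended on thinning. This ratio cannot exceed the inverse of the larger of the 2 shares, so common genes hold it near 1. In spleen Pou2f2 was seen in 401 of 445 thinned cells, so the medians cannot be ranked between spleen and trachea. In native trachea 7 pairs were seen in no cell, each a pair with Nxpe4, which was seen in 1 of 1562 cells. With 1 such cell these pairs could hardly be seen. Without thinning 35 of 36 pairs in spleen, 36 in allograft and 36 in native trachea lay above the product. Of spleen phagocytes with an Ace UMI, 76.6% also had Spn, against 43.9% of those without Ace, and Treml4 was seen in 57.3% against 38.0%. Nxpe4 alone did not differ in this way, at 25.5% with and 25.7% without Ace. Of the 22 allograft phagocytes with Ace, 10 had Treml4 (45.5%), against 1.30% of those without. In native trachea it was 10 of 21 (47.6%), against 0.779% of those without. Cells of 1 library share its depth and its free RNA. Co-detection was part of how the genes were chosen, and these ratios describe single libraries.

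Spleen phagocytes themselves split in the finer clustering into a larger finer cluster 12 of 404 cells and a finer cluster 28 of 68 cells with Mfsd7a, Galnt9, Ly6c2 and Nxpe4 as leading genes. Ly6c2 was 58.1-fold higher in finer cluster 28 (42.6 to 83.3), at 1645 CPM, and its cells are called Ly6c2-led. They were deeper, with a median of 7440 UMIs against 3322 in finer cluster 12, and the part of depth was not tested. In the Ly6c2-led cells 8 of the 9 genes were 2-fold or more lower than in the larger cluster and 0 higher, beside 14.6% and 7.89% of all genes. Ace had 72.6 against 910 CPM (12.4-fold lower, 9.01 to 18.0) and Treml4 82.7 against 707 CPM (8.46-fold lower, 6.26 to 12.0). Cd300e had 1 UMI, or 2.02 CPM, against 479 CPM in the larger cluster (159-fold lower, 42.5 to 9402). Eno3 had 14.1 against 474 CPM (31.4-fold lower, 16.2 to 83.9) and Spn 86.7 against 950 CPM (10.8-fold lower, 8.09 to 15.2). The split was graded for the others: Adgre4 was 4.58-fold, Pou2f2 3.62-fold and Nr4a1 2.59-fold lower (377 against 978 CPM). Nxpe4 was the exception, at 155 against 236 CPM (1.51-fold lower, 1.18 to 1.97). The members took no part in the clustering, but other genes of the same cells did, so these ratios are a description.

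In trachea, finer cluster 10 stood above the other phagocytes in 6 of the 9 genes in allograft, with 0 lower, beside 5.97% and 14.3% of all genes, and in 8 of the 9 in native trachea, with 0 lower, beside 12.4% and 22.5%. Within finer cluster 10 most of the 9 genes were lower in allograft than in native cells. Ace had 47.4 CPM in its 327 allograft cells, against 231 CPM in its 81 native cells (4.87-fold lower, 3.78 to 6.30), and 7 of the 9 genes were 2-fold or more lower and 0 higher, beside 5.15% and 11.8% of all genes. In the same cells 7 of 9 genes of resident macrophages were higher in allograft and 0 lower, as were 6 of 14 monocyte and macrophage markers with 0 lower, and their part in the result was not tested. In cluster 7 of the coarser clustering 8 of the 9 were lower and 0 higher, beside 7.55% and 11.6%. Leaving out cells under 1000 genes or over 10% mitochondrial UMIs, with the clusters kept as they were, left 526 allograft and 102 native cells in cluster 7. Of the 9 genes 8 were still lower and 0 higher, beside 7.74% and 12.2% of all genes. In finer cluster 10 this left 300 allograft and 78 native cells, with 7 of the 9 lower and 0 higher, beside 5.12% and 11.9%. When the cells that passed this filter were clustered again, the cluster borders moved, and the phagocyte cluster richest in Ly6c2 held 67 allograft and 68 native cells, all of them from finer cluster 10. These were 3.66% (2.84 to 4.62) of 1833 allograft phagocytes and 5.16% (4.03 to 6.49) of 1319 native phagocytes under that filter, and had medians of 6054 and 7812.5 UMIs. This smaller set, looked at after the data were seen, is called the Ly6c2-rich set below.

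In the Ly6c2-rich set most of the 9 genes were at close levels in the 2 trachea sources. The set held 67 of the 300 allograft and 68 of the 78 native cells of finer cluster 10 under that filter. The part of this choice of cells in the closeness was not tested. Ace had 238 CPM in allograft and 257 CPM in native cells (1.08-fold lower, 0.825 to 1.42), Treml4 137 and 154 CPM (1.12-fold lower, 0.791 to 1.62) and Cd300e 69.6 and 62.0 CPM (1.13-fold higher, 0.653 to 1.92). Adgre4 had 171 and 124 CPM, Nr4a1 224 and 208, Pou2f2 544 and 691, Eno3 64.6 and 88.3, and Spn 194 and 222 CPM in allograft and native cells. None of these 8 was 2-fold apart. Only Nxpe4 was, at 34.8 CPM or 14 UMIs in allograft and 8 UMIs in native cells (2.26-fold higher, 0.906 to 6.37). That is 1 of 9 genes higher and 0 lower, beside 7.63% and 3.92% of all genes. In thinned cells Ace was seen in 17 of 67 allograft and 17 of 68 native cells, and 2 or more of the 9 genes in 30 of 67 and 30 of 68.

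Against the other trachea phagocytes the set stood far apart in most of the 9 genes in both sources. In allograft the set exceeded the other phagocytes 2-fold or more for all 9 genes, with 0 lower, beside 13.7% and 15.6% of all genes, with Ace at 238 against 1.78 CPM (132-fold, 86.8 to 214). In native trachea 8 of 9 were higher and 0 lower, beside 13.5% and 22.6% of all genes, with Ace at 257 against 1.49 CPM (166-fold, 97.4 to 331) and Treml4 at 154 against 0.575 CPM. Nr4a1 was the exception there, at 208 against 107 CPM (1.95-fold higher, 1.58 to 2.37). Of the partners described below, other genes of nonclassical monocytes, 7 of 15 compared were higher and 2 lower in allograft. Their median log2 ratio there was 0.09, against 0.10 for all genes. In native trachea 9 of 15 were higher and 2 lower (median 1.32, all genes -0.07). Of 12 classical monocyte genes, 8 were higher and 0 lower in allograft, and 11 higher and 1 lower in native trachea. Genes of resident macrophages were low in the set, 9 of 11 lower and 1 higher in allograft and 11 of 11 lower in native trachea. C1qa, a complement gene of macrophages, stood at 62.1 against 3853 CPM in allograft and at 20.7 against 6135 CPM in native trachea. Ace, Cd177, Pglyrp1, Chil3 and Treml4 were its leading genes by fold over other trachea phagocytes, and Cd177 and Pglyrp1 are also known from neutrophils. The summed level of the neutrophil marker list was 355 CPM in the set against 120 CPM in other phagocytes of allograft, and 479 against 613 CPM in native trachea, and its part in the result was not tested.

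Spleen phagocytes under the same filter were still higher than the Ly6c2-rich set for all 9 genes, beside 24.9% of all genes higher and 9.64% lower against its allograft cells and 29.2% higher and 7.83% lower against its native cells. The gap was narrow for Ace, at 668 CPM in spleen against 238 in allograft (2.79-fold, 2.27 to 3.48) and 257 in native cells (2.59-fold, 2.17 to 3.12). It was wider for Nxpe4, at 209 CPM in spleen, 5.81-fold above allograft cells (3.54 to 11.1) and 13.1-fold above native cells (6.99 to 32.4). Set beside the spleen clusters, Ace, Treml4, Cd300e, Spn and Eno3 in the set lay between the Ly6c2-led and the larger cluster of spleen. Nr4a1 (224 and 208 CPM against 377) and Nxpe4 lay below both, and Ly6c2 lay between, at 546 CPM in allograft and 605 CPM in native cells.

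**Figure D4:**
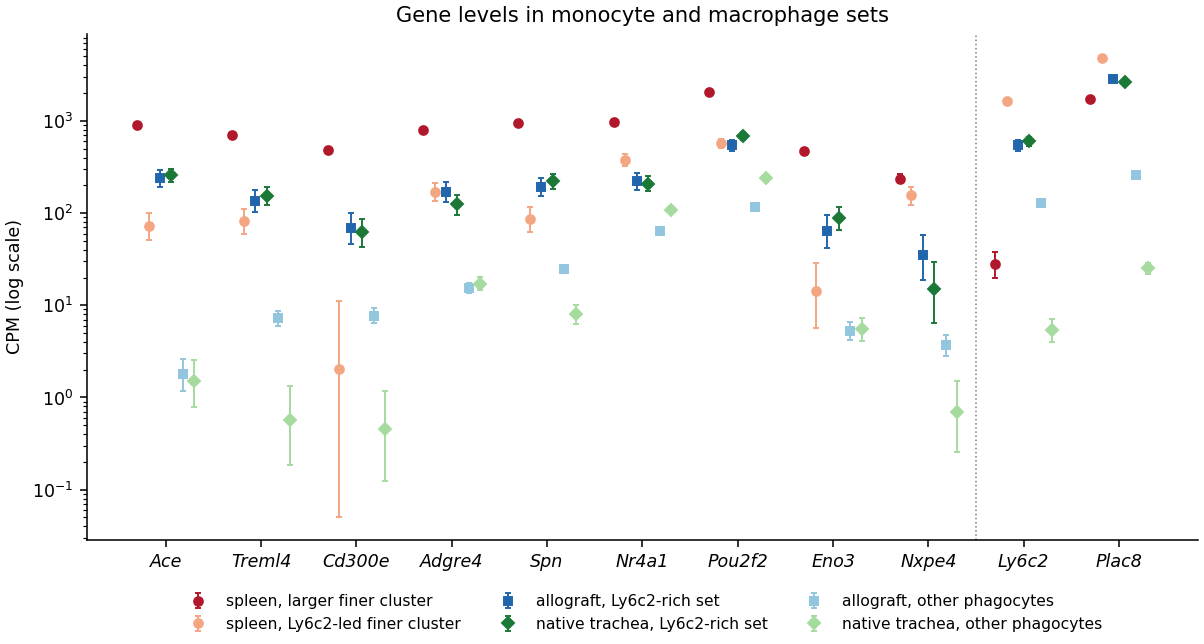
CPM (log scale) of the 9 genes and, right of the dotted line, of the classical monocyte genes Ly6c2 and Plac8 in 2 finer clusters of spleen phagocytes, the Ly6c2-rich set of allograft and native trachea, and the other trachea phagocytes; bars are 95% Poisson intervals. The allograft and native points of the set lie close together, for Ace at 238 and 257 CPM, and for the 9 genes above other trachea phagocytes and below the larger spleen cluster.

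Another 16 genes of nonclassical monocytes were taken as partners. Of these, 12 were 2-fold or more higher and 0 lower in spleen than in allograft phagocytes, beside 22.5% and 21.1% of all genes. The median log2 ratio was 2.67 (all genes 0.22). Against native phagocytes 13 were higher and 1 lower (median 2.27, all genes 0.28), beside 25.1% and 22.3%. S1pr5, the sphingosine phosphate receptor by which these monocytes leave the marrow, had 207 CPM in spleen, 0.413 in allograft and 0.868 in native phagocytes. Ceacam1, an adhesion molecule, had 302, 6.25 and 11.2 CPM, and Itgal, a leukocyte integrin subunit, 1312, 96.2 and 38.9 CPM. Tgfbr3, a coreceptor of transforming growth factor beta, had 56.6, 0.649 and 2.89 CPM. The partner that was lower was Cd36, a scavenger receptor, at 302 CPM in spleen against 763 CPM in native phagocytes (2.53-fold lower, 2.32 to 2.76), named after its value was seen. Between the trachea sources 4 partners were higher and 5 lower in allograft, beside 6.83% and 11.1% of all genes. The Fc receptor gene Fcgr4 led them, at 262 CPM in allograft and 37.7 CPM in native phagocytes (6.94-fold higher, 6.26 to 7.72), followed by Cd274, which encodes the ligand PD-L1, at 189 and 33.6 CPM.

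Phagocytes with 2 or more of the 4 surface genes were set against those with none of them within each library. In spleen 13 of 16 partners were 2-fold or more higher in the 315 cells with 2 or more than in the 61 with none, beside 13.8% of all genes, and 10 of 12 classical monocyte genes were lower, beside 7.88%. Ly6c2 had 37.5 CPM in cells with 2 or more and 1636 CPM in cells with none (43.2-fold lower, 32.1 to 60.9). In trachea the classical genes did not separate that way, but the cells with none were of another kind. In spleen 52 of the 61 lay in the Ly6c2-led finer cluster 28. In allograft 1382 of 1975 cells with none lay in cluster 1, and in native trachea 73 of 1488 lay in cluster 7. The part of these reference cells in the contrast with spleen was not tested. In allograft 10 of 14 partners were higher in the 20 cells, beside 38.2% of all genes, and 5 of 12 classical genes were higher and 3 lower, beside 10.2% of all genes lower. In native trachea 10 of 15 were higher in the 13 cells, and 1 lower, beside 35.4% and 13.4%, and 6 of 12 classical genes were higher and 2 lower. Each sum had 0.5 UMI added, so a gene with no UMI in these few trachea cells could count as higher. The B cell markers summed to 0 CPM in them, yet 1 of 4 compared counted as higher in allograft and 2 of 4 in native trachea. An unknown part of the higher counts, also of all genes, is of this kind. Itgal had 766 CPM in those allograft cells against 89.4 CPM in cells with none (8.63-fold, 6.6 to 10.9), and 884 against 22.8 CPM in native trachea (38.9-fold, 29.4 to 50.5). Ly6c2 had 331 against 130 CPM in allograft and 165 against 33.7 CPM in native trachea. Unthinned cells, grouped the same way, gave 14 of 16 partners higher and 9 of 12 classical genes lower in spleen. In allograft they gave 5 of 15 partners higher and 6 of 12 classical genes higher with 1 lower, and in native trachea 10 of 15 partners higher with 1 lower and 9 of 12 classical genes higher with 1 lower. The share of all genes was not computed for unthinned cells, so nothing is read from these counts. A class set by a count per cell is a range and not a cell type: 69 spleen, 97 allograft and 61 native cells with exactly 1 of the 4 genes lie between. Depth moved with the class in spleen and allograft, where cells with 2 or more had medians of 3392 and 3476.5 UMIs and those with none 7143 and 6984, and its part was not tested.

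Most genes of classical monocytes were also higher in spleen phagocytes. Against allograft 7 of 12 were higher and 0 lower (median log2 ratio 1.63), beside 22.5% and 21.1% of all genes. Against native trachea 8 were higher and 1 lower (median 1.84), beside 25.1% and 22.3%. Hp, which encodes haptoglobin, had 777 CPM in spleen, 33.6 in allograft and 28.5 in native phagocytes, and Plac8 2498, 304 and 160 CPM. Ly6c2 had 448 CPM in spleen, 130 in allograft and 35.3 in native phagocytes. F13a1, the coagulation factor gene that was lower, had 191 CPM in spleen against 882 CPM in native phagocytes (4.61-fold lower, 4.16 to 5.14). Genes of resident macrophages mostly ran the other way, 9 of 12 lower in spleen against either trachea source. Of the 12, 2 were higher in spleen against allograft and 1 against native trachea. In sums over all phagocytes, fewer cells of a kind and less RNA per cell cannot be told apart.

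Nr4a1 is also an immediate early gene, of the kind that rises within a short time of cell stress or stimulation, and cell dissociation is known to raise such genes. Dissociation and tissue cannot be told apart between single libraries, and the part of dissociation in the Nr4a1 level was not tested. Of 13 other immediate early genes, 4 were 2-fold or more higher and 6 lower in spleen than in allograft phagocytes (median log2 ratio -0.65), beside 22.5% and 21.1% of all genes, so that the 4 higher genes are a share near that of all genes. Against native phagocytes 1 was higher and 8 lower (median -1.53), beside 25.1% and 22.3%. Its closest relatives Nr4a2 and Nr4a3 were among the lowest: Nr4a2 had 2 UMIs in spleen, or 1.05 CPM, against 104 CPM in allograft (79.3-fold lower, 27.4 to 819) and 51.6 CPM in native phagocytes. Nr4a3 had 1 UMI, or 0.524 CPM, against 61.7 CPM in allograft and 30.9 CPM in native phagocytes. Egr2 had no UMI in spleen phagocytes and 86.0 CPM in allograft, at least 54.7-fold lower in spleen, taking 3 UMIs as the floor. The heat shock gene Hspa1b was higher in spleen, like Nr4a1, with 1026 CPM against 99.1 CPM in allograft (10.4-fold higher, 9.70 to 11.1) and 297 CPM in native phagocytes (3.46-fold higher, 3.26 to 3.66). Within spleen Nr4a1 stood at 377 CPM in the Ly6c2-led cluster and 978 CPM in the larger cluster, while Atf3 was higher in the Ly6c2-led cells (3.17-fold, 2.10 to 4.83) and Egr1 was not apart in counting error (1.63-fold, 0.812 to 3.07). Between the trachea sources 6 of the 13 genes were 2-fold or more lower in allograft and 1, Nr4a2, higher, against 11.1% of all genes lower and 6.83% higher, and Nr4a1 was 1.72-fold lower.

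**Figure D5:**
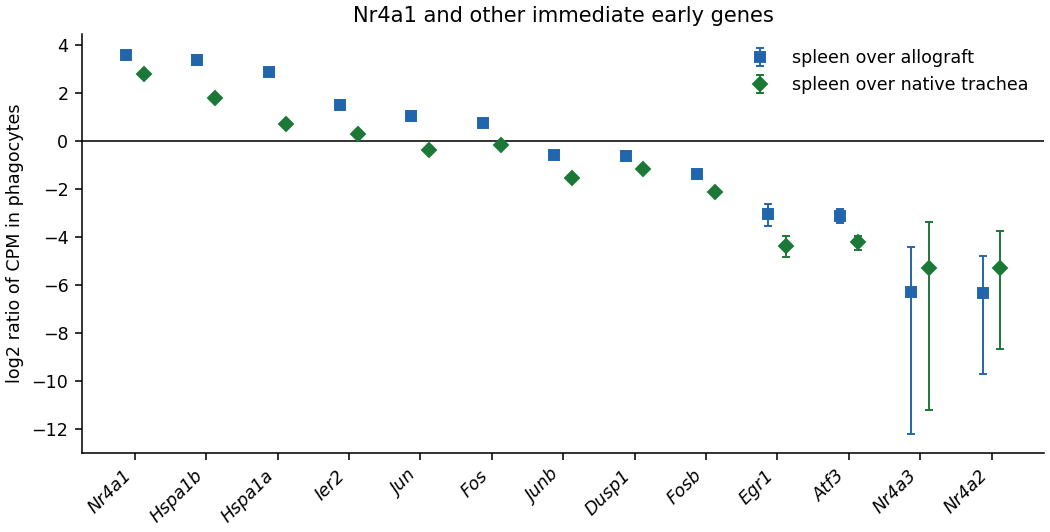
log2 ratio of CPM in phagocytes, spleen over allograft and spleen over native trachea, for Nr4a1 and the immediate early genes with a UMI in spleen; bars are 95% counting intervals. Nr4a1 lies highest, at 3.56 and 2.78, and its relatives Nr4a2 and Nr4a3 lowest.

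Relatives of the 9 genes went both ways between spleen and trachea phagocytes. Of the 21 relatives with enough UMIs, 8 were higher and 7 lower in spleen than in allograft phagocytes, beside 22.5% and 21.1% of all genes. Of 19, 10 were higher and 6 lower against native phagocytes, beside 25.1% and 22.3%. Trem3, a receptor of the same locus as Treml4, had 213 CPM in spleen, 6.78 in allograft and 4.63 in native phagocytes, while Trem2, a receptor of lipid-laden macrophages, had 29.9, 501 and 204 CPM. Adgre1, which encodes F4/80, had 213 CPM in spleen, 567 in allograft and 531 in native phagocytes. Adgre5, which encodes CD97, had 913, 224 and 356 CPM. Nxpe5 was lower in spleen, at 1.05 CPM against 25.5 in allograft and 61.1 in native phagocytes. Eno1, the common enolase, had 235 CPM in spleen, 190 in allograft and 96.2 in native phagocytes, 1.24-fold higher in spleen than in allograft where Eno3 was 51.5-fold higher. Of 10 glycolysis genes, 0 were higher and 4 lower in spleen than in allograft, and 2 higher and 1 lower against native trachea. In allograft over native phagocytes 8 were higher and 0 lower, beside 6.83% and 11.1% of all genes.

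Genes with a profile like that of Ace and Treml4 were ranked by the Pearson correlation of log2(CPM + 1) with the mean of the 2 over 28 profiles, each a cluster of 50 or more cells in 1 library. Tgm3, which encodes a transglutaminase, came first of 7235 genes (r = 0.93), followed by the potassium channel gene Kcnj2 (0.90), Hp (0.89), Gpr141 (0.88) and Cd300e (0.88). Ceacam1, Nxpe4, Eno3, Bmx and Nfe2 completed the first 10 (0.86 to 0.87). Of the other members, Cd300e, Nxpe4 and Eno3 were thus among the first 10 and Adgre4 at rank 28, whereas Nr4a1 (474), Pou2f2 (480) and Spn (601) ranked far lower. The profiles share libraries and depth, and r is given as a description.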

How the data were processed

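Cells of 12 mouse samples were profiled with 10x Chromium 3′ chemistry version 3, per the labels' protocols. The deposited matrices hold raw UMI counts by gene and cell barcode from Cell Ranger 3.1.0, per the file headers, on build mm10 per the submitters' processing notes; the annotation release is not given in the sources used here. There is 1 matrix per source, with 4 samples each, and the 3 matrices hold 28318436 (spleen), 26503045 (allograft) and 31415458 (native trachea) UMIs. Barcodes were kept at a minimum of 500 genes and a mitochondrial share of at most 20%. Doublets were called with scrublet (scanpy 1.11.5) and removed. Cells were clustered with leidenalg 0.10.2 (2000 variable genes, 30 principal components, 15 neighbours, resolution 0.5, and 1.0 for the finer clustering), leaving the 9 genes out, into 21 clusters.

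UMIs were summed per library and set of cells and scaled to CPM. Ratios had 0.5 UMI added to each sum and exact conditional binomial 95% intervals; levels had exact Poisson intervals and shares Clopper-Pearson intervals (scipy 1.17.1). A gene was compared with 10 or more summed UMIs and called apart at 2-fold. With 1 library per source no test was made and no p-value is given. Shares of cells used all UMIs, or cells thinned to 1500 UMIs where stated and for detection in the same cell. Thinning left out 32 spleen, 114 allograft and 51 native phagocytes. A share of 0 is given with the limit of 3 cells. The computation was tested on simulated data drawn with known ratios for 200 genes, and the intervals held the true ratio for 97.5% of changed genes in spleen over allograft, 95.5% in spleen over native trachea and 98.5% in allograft over native trachea. The simulated sums had counting error alone, as the intervals assume. This checks the computation and not the spread between cells or animals. Gene positions are from GENCODE on mm10 and promoter windows from RefSeq on GRCm38.p6.

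The 9 genes, the other gene lists and the marker lists were chosen with earlier results of these data known. Besides the 9 genes, up to 4 genes per list were named by the largest ratio among those with 30 or more UMIs, with exceptions stated, and 10 genes by likeness of profile. Ly6c2, Itgal, C1qa, Plac8 and the genes compared between families or within spleen clusters were named after their values were seen.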

Additional observations from a re-analysis of the deposited data

How the results depend on the processing

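All 9 genes were 2-fold or more higher in spleen phagocytes against both trachea sources under each of the 12 alternatives: no cell filter, a stricter 1, called doublets kept, median-of-ratios scaling, totals without mitochondrial and ribosomal genes, thinned cells, the 9 genes allowed among the clustering genes, of which 7 were used, Leiden resolutions of 0.3 and 1.0, a marker gate per cell, a minimum of 30 UMIs, and B cell-gene clusters included (added after seeing the data). The number 2-fold or more apart between allograft and native phagocytes, 4 as reported, was 1 in thinned cells and 2 with the marker gate, and the Ace log2 ratio turned to 0.079 in thinned cells. At resolution 0.3 the allograft over native log2 ratio of Treml4, -0.05 as reported, was 2.76. The share of phagocytes with 2 or more genes was 97.9% (spleen), 27.1% (allograft) and 30.8% (native) without thinning, 3.53% (allograft) and 4.64% (native) at resolution 0.3, and 89.2% (spleen) with the marker gate. The number of genes lower in allograft in the cluster richest in Ly6c2, 8 as reported, was 0 under the stricter filter followed by a new clustering, 2 at resolution 0.3, and 8 with the stricter filter but the clusters kept (added after seeing the data). The cause was not tested. Scaling by the median of gene ratios shifted log2 ratios by 0.27, 0.36 and 0.08 in spleen over allograft, spleen over native trachea and allograft over native trachea. Of single log2 ratios, 108 per comparison, 86 stayed within their counting interval and 22 moved for spleen over allograft, 85 and 23 for spleen over native trachea, and 98 and 9, with 1 reversed, for allograft over native trachea. Scaling and minimum UMIs give no value for shares of cells. No paired analysis was possible because the barcodes carry no sample of origin, and for the same reason no replicate could be left out. Depth limits Cd300e and Nxpe4 in native phagocytes, with 43 and 18 UMIs.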
